A study of Drosophila melanogaster with 80 samples.

Results

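Granddaughters of sugar-fed males were compared with granddaughters of control-fed males, when the granddaughters themselves ate the control diet. The comparison used 8 of the 80 Affymetrix Drosophila Genome 2.0 arrays of the series, chosen by their labels, with 4 arrays in each of the groups. All flies were adults of Oregon R, a standard wild-type Drosophila melanogaster stock with no transgene. The first group were F2 virgin females on the control diet (CD, 0.15 M sucrose) whose F0 male ancestors ate a high-sucrose diet (HSD, 1 M sucrose), called HSD ancestry below. The second were F2 virgin females on CD whose F0 male ancestors ate CD, called CD ancestry. In both groups flies aged 3 to 4 days went onto CD for 14 days at 25 °C, with 30 flies in a vial, and RNA came from whole flies. What the F1 parents of these females ate is not given in the sources used here. Whether each array of a group stands for its own vial of flies is not given either, so the p values reflect the spread between arrays, and that spread may be technical. The series asks whether the diet of a male leaves a trace in gene expression of its descendants.

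In a female fly the ovary is a large part of the body, and each egg chamber is wrapped in follicle cells. Late in oogenesis these cells make the eggshell in a fixed order, first the vitelline membrane next to the egg and then the chorion around it, while yolk proteins come mainly from the fat body. The gut secretes proteases, lipases and maltases that digest food, and the fat body stores sugar as fat and makes antimicrobial peptides.

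Values are log2 signals, so a change of 1 is a doubling. All 8 arrays carried the same batch label. The labelled sex matched its markers: the yolk protein gene Yp1 lay between 14.46 and 14.53 in the 8 arrays, against 6.31 to 6.73 in F2 CD-fed males. The seminal fluid gene SP lay between 3.96 and 4.26 and the sperm gene Mst87F between 3.33 and 3.71, against at least 12.65 and 12.53 in those males. The mean level of 48 testis genes was 4.29 to 4.31 in CD ancestry and 4.28 to 4.35 in HSD ancestry, and that of 25 male accessory gland genes was 4.29 to 4.38 and 4.30 to 4.39. Array medians ran from 7.60 to 7.78, and 3 of the 4 arrays of HSD ancestry, replicates 1, 3 and 4, had the lowest medians of the 8. The part of these medians in the results was not tested beyond the scaling alternatives given below. The main axis of a principal component analysis held 42.8% of the variance, with the groups on opposite sides of its middle. The separation was narrow for replicate 2, at -1.27 in CD ancestry and 1.12 in HSD ancestry, where other arrays reached -13.04 and 10.37. By the median absolute difference over genes, CD-ancestry replicate 2 was nearer to each HSD-ancestry array (0.084 to 0.101) than to any other CD-ancestry array (0.105 to 0.126).

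With HSD ancestry, females had less RNA of eggshell genes and of some digestive enzymes, while a trypsin and a maltase rose. Genes with more RNA also included an acyl-CoA binding protein, a metallothionein and a glutathione transferase. Of 10212 genes tested, 132 changed (1.29%), 51 of them higher (0.499%) and 81 lower (0.793%), by limma at a Benjamini-Hochberg adjusted p under 0.05. In all 132 the 4 arrays of one group lay beyond the 4 of the other. Over all genes tested such separation was seen upward in 303 (2.97%) and downward in 825 (8.08%). Changes were moderate, with a median size of 0.51 among the 132. A fall of more than 1 log2 unit was seen in 13 genes and a rise of that size in 0. The median change of all genes tested was -0.04, and the balance of directions depended on scaling. Among called genes 38.6% were higher in the deposited values, 54.7% after a further quantile normalization and 67.2% after subtracting each array's median. Single arrays also moved the count. It was 64, 209, 64 and 53 without HSD-ancestry replicates 1, 2, 3 and 4, and 464, 60 and 70 without CD-ancestry replicates 2, 3 and 4.

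**Figure D1:**
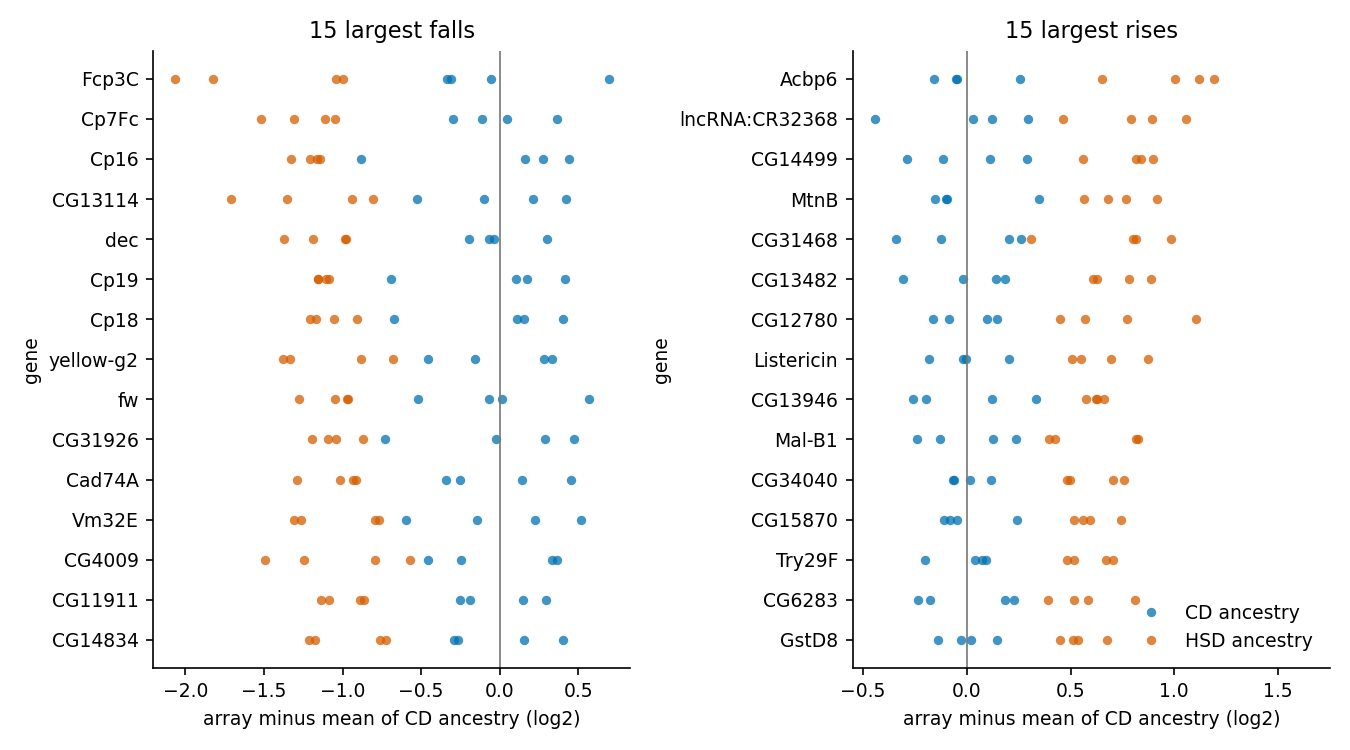
Each point is 1 array, plotted as its log2 signal minus the mean of the 4 CD-ancestry arrays, for the 15 genes with the largest falls (left) and the 15 with the largest rises (right) among genes that passed. In each gene the groups do not overlap, and falls reach -1.48 (Fcp3C) while rises reach 0.99 (Acbp6).

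The eggshell genes formed the largest group of falls. Of 21 chorion and vitelline membrane genes tested, 14 fell and 0 rose, beside 0.793% of all genes that fell. All 21 lay below 0, with a median of -0.89 against -0.04 for all genes tested, and in 17 the arrays of HSD ancestry lay below all arrays of CD ancestry. The mean level of the list was 10.17 to 10.25 in the 4 arrays of HSD ancestry and 10.77 to 11.27 in the 4 of CD ancestry. In bulk samples fewer follicle cells and less RNA per cell cannot be told apart. The count of eggshell genes that fell was 9 without HSD-ancestry replicate 3 and 9 without CD-ancestry replicate 3.

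Genes of the vitelline membrane stage lay lower with HSD ancestry, some of them with a wide spread between arrays. Fcp3C, a follicle cell protein gene, read 9.42, 9.14, 9.17 and 10.17 in CD-ancestry replicates 1 to 4 and 7.41, 7.65, 8.47 and 8.43 in HSD-ancestry replicates 1 to 4. The groups were 0.67 apart at their closest, and replicates 1 and 2 of HSD ancestry were the lowest arrays. Its change was -1.48 ± 0.27 (SE), a 2.80-fold fall, with a limma adjusted p of 0.0233. Its call was lost without HSD-ancestry replicate 1 and with a trended robust prior (limma adjusted p up to 0.0810). Vm32E, a vitelline membrane protein gene, read 10.86, 11.23, 10.42 and 11.53 in CD ancestry and 9.74, 9.70, 10.22 and 10.24 in HSD ancestry. It fell by 1.03 (adjusted p = 0.0379, limma), and again replicates 1 and 2 of HSD ancestry were lowest. This call was lost in 9 of 17 alternatives (limma adjusted p up to 0.114), among them the absence of any array of HSD ancestry or of CD-ancestry replicate 2 or 4. Vm26Aa, one of the most abundant vitelline membrane transcripts, read 13.87, 13.88, 13.70 and 14.05 against 13.16, 13.24, 13.50 and 13.41 and fell by 0.54 (adjusted p = 0.0136, limma). Vm26Ac had a change of -1.18 and Vm34Ca one of -0.24, with groups that did not overlap, and neither passed (limma adjusted p = 0.0533 and 0.0714). The gene psd (palisade), needed for the vitelline membrane, fell by 0.74.

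The gene dec (defective chorion 1), whose products are processed into several eggshell layers, had the smallest adjusted p of the list. It read 11.22, 11.19, 11.06 and 11.56 in CD ancestry and 9.89, 10.07, 10.28 and 10.28 in HSD ancestry. The groups were 0.78 apart at their closest, and the change was -1.13 ± 0.11 (adjusted p = 0.00178, limma). Cp7Fc, a chorion protein gene, read 9.61, 9.27, 9.45 and 9.93 against 8.05, 8.25, 8.52 and 8.45 and fell by 1.25 ± 0.14 (adjusted p = 0.00256, limma). The gene ndl (nudel), which encodes a protease of the eggshell that helps set the dorsal-ventral axis of the embryo, fell by 0.65.

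Beside Cp7Fc, the chorion genes from the X-linked and third-chromosome clusters that fell were Cp16, Cp18, Cp19, Cp36 and Cp38. Cp16 read 11.46, 12.78, 12.62 and 12.50 in CD ancestry and 11.18, 11.20, 11.01 and 11.14 in HSD ancestry. CD-ancestry replicate 1 stood 1.04 below the next array of its group, so the groups came within 0.26 of each other. Cp16 fell by 1.21 ± 0.22 (adjusted p = 0.0266, limma). Cp18 and Cp19 had the same order of arrays in CD ancestry, with replicate 1 lowest at 11.68 and 12.38 and replicate 2 highest at 12.75 and 13.49. They fell by 1.08 and 1.13 (limma adjusted p = 0.0156 and 0.0128). The call of Cp16 was lost without HSD-ancestry replicate 1, 3 or 4 or CD-ancestry replicate 3 or 4 (limma adjusted p up to 0.0912), that of Cp18 without HSD-ancestry replicate 3 or 4 or CD-ancestry replicate 3, and that of Cp19 without CD-ancestry replicate 3. A trended robust prior also ended these 3 calls, with limma adjusted p up to 0.0666 for Cp18 and 0.0615 for Cp19. Cp36 and Cp38 fell by 0.89 and 0.88, with limma adjusted p of 0.00734 and 0.00734. Cp15, of the same cluster as Cp16, overlapped between groups and did not pass, with a change of -0.61 (limma adjusted p = 0.110).

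The yellow-family genes yellow-g and yellow-g2, which act in the hardening of the eggshell, showed the reverse order of arrays within HSD ancestry. For yellow-g the values were 9.39, 9.41, 9.74 and 10.02 in CD ancestry and 9.04, 9.10, 8.27 and 8.32 in HSD ancestry. Here replicates 3 and 4 of HSD ancestry were lowest, where Fcp3C and Vm32E had replicates 1 and 2 lowest. Replicates 3 and 4 were also the lowest within HSD ancestry for Cp15, Cp16, Cp18, Cp36, Cp38, Femcoat, ndl and tsl. The falls were 0.96 for yellow-g and 1.07 for yellow-g2. These calls were lost in 9 and 5 of 17 alternatives (limma adjusted p up to 0.134 and 0.0757), in both without replicate 3 or 4 of either group. Over the 21 genes, CD-ancestry replicate 4 was the highest of the 8 arrays in 14, and the lowest array was of HSD ancestry in all but 1 of the genes.

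Other members did not pass. Femcoat, an eggshell component, had a change of -0.83 with overlapping groups (limma adjusted p = 0.139). The genes fs(1)N (female sterile Nasrat) and clos (closca), which act at the vitelline membrane in patterning of the embryo's ends, had changes of -0.19 and -0.17. Their partner tsl (torso-like) read 8.67 to 8.87 in CD ancestry and 8.69 to 8.83 in HSD ancestry, with a change near 0 whose sign depended on the scaling (0.061 after quantile normalization and 0.074 after subtracting array medians).

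**Figure D2:**
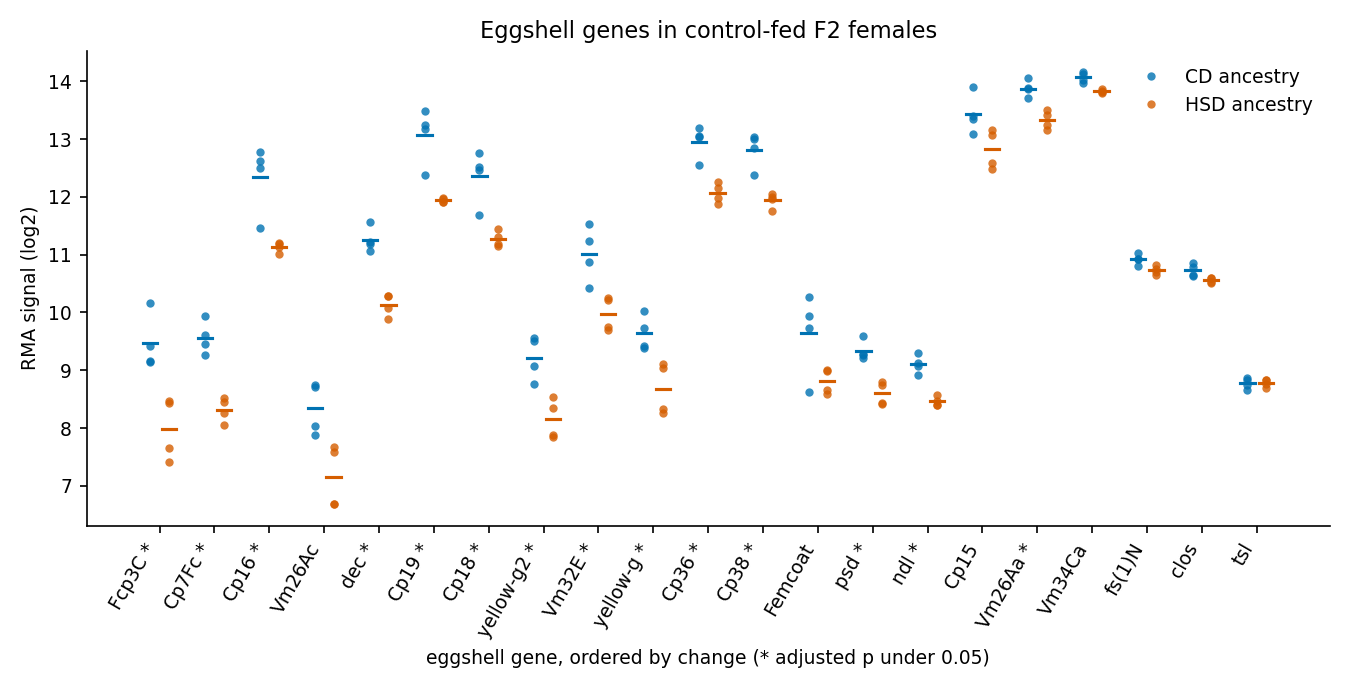
Log2 signal of the 21 eggshell genes in the 4 arrays of CD ancestry (blue) and the 4 of HSD ancestry (orange), with group means as bars and genes ordered by change. Asterisks mark the 14 genes that passed, all of them lower in HSD ancestry.

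Genes outside the list were also among the largest falls. Cad74A, a cadherin of follicle cells, read 6.82, 6.73, 7.22 and 7.53 in CD ancestry and 6.16, 6.14, 5.78 and 6.06 in HSD ancestry and fell by 1.04 (adjusted p = 0.00832, limma). Its probe set can match more than 1 transcript. The gene fw (furrowed), which encodes a lectin-domain cell surface protein, read 7.33, 6.78, 6.70 and 6.25 against 5.49, 5.72, 5.80 and 5.79 and fell by 1.07 (adjusted p = 0.0146, limma). CG13114, CG31926, CG4009 and CG14834, named here by gene number alone, fell by 1.20, 1.05, 1.03 and 0.97. Their calls were lost in 5, 6, 10 and 4 of 17 alternatives (limma adjusted p up to 0.0861, 0.110, 0.137 and 0.0628), in each without replicate 3 or 4 of HSD ancestry or replicate 3 of CD ancestry.

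Lists of germline, chromatin, yolk and general cell machinery genes held no called gene. By limma, 0 of 34 maternal germline genes passed, with 10 at an unadjusted p under 0.05, 29 below 0 and a median of -0.08. In the piRNA and small RNA pathway 0 of 30 passed, with 11 at that unadjusted p, 26 below 0 and a median of -0.12. Of 33 Polycomb, Trithorax and heterochromatin genes 0 passed, with 10 at that unadjusted p, 30 below 0 and a median of -0.08. Over all genes tested 2221 of 10212 were at that unadjusted p and 6493 were below 0, with a median of -0.04. By smallest p, the first member of the piRNA list was nxf2, which acts in piRNA-guided silencing, with a change of -0.22 (limma adjusted p = 0.103). That of the Polycomb list was Su(var)3-7, a heterochromatin protein gene, with -0.32 (limma adjusted p = 0.0714). Of 9 genes of yolk proteins and their uptake 0 passed by limma, with 2 at an unadjusted p under 0.05. Yp1 differed by 0.01, Yp2 by -0.06 and Yp3 by -0.09. Their signals were among the highest on the arrays. Apoltp, a lipid transfer protein gene of the same list, had a change of -0.24 (limma adjusted p = 0.0849). Lists of DNA replication and cell cycle (27 genes), proteasome (35) and cytoplasmic ribosome (39) had 0 passed by limma, with 6, 4 and 2 at an unadjusted p under 0.05.

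Of 29 midgut proteases and lysozymes, 3 fell and 0 rose, beside 0.793% of all genes that fell and 0.499% that rose. The median of this list was 0.03, with 16 changes above 0 and 13 below. Without CD-ancestry replicate 2 the number that passed was 6. Jon25Biii, a Jonah serine protease gene of the midgut, read 11.78, 11.97, 11.86 and 12.08 in CD ancestry and 11.42, 11.44, 11.38 and 11.30 in HSD ancestry, with no overlap. It fell by 0.54 ± 0.07 (adjusted p = 0.00492, limma). Jon65Aii fell by 0.75 and zetaTry, a trypsin gene, by 0.40. The call of Jon65Aii was lost in 6 of 17 alternatives (limma adjusted p up to 0.0981), among them the absence of HSD-ancestry replicate 1 or 4 or CD-ancestry replicate 3 or 4. The gene mag (magro), a gut lipase that also acts on cholesterol esters, read 10.83, 10.84, 11.08 and 11.02 against 10.43, 10.43, 10.46 and 10.40. It fell by 0.51 ± 0.07 (adjusted p = 0.00492, limma) and was the 1 gene that passed of 14 in lipolysis and fatty acid oxidation, where 2 passed without CD-ancestry replicate 2. CG11911 fell by 0.99 (adjusted p = 0.00454, limma). Try29F, a trypsin gene outside that list, read 7.90, 7.96, 7.94 and 7.66 in CD ancestry and 8.35, 8.38, 8.57 and 8.54 in HSD ancestry and rose by 0.59 ± 0.08 (adjusted p = 0.00551, limma).

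Few genes of sugar and fat metabolism passed. Over all genes tested 0.499% rose and 0.793% fell. Of 19 genes of sugar digestion and transport 1 rose, the maltase Mal-B1, which read 7.93, 7.82, 8.18 and 8.29 in CD ancestry and 8.45, 8.48, 8.88 and 8.87 in HSD ancestry. The groups did not overlap, and the rise was 0.62 ± 0.13 (adjusted p = 0.0383, limma). The call of Mal-B1 was lost without HSD-ancestry replicate 3 or 4 or CD-ancestry replicate 1 or 3 (limma adjusted p up to 0.131), which left 0 of the list, and 2 passed without HSD-ancestry replicate 2. Of 19 genes of sugar sensing and insulin signalling 1 fell, AkhR, the receptor of adipokinetic hormone, which mobilises stored fat and sugar. AkhR read 7.95, 7.85, 8.14 and 8.03 against 7.70, 7.65, 7.65 and 7.59 and fell by 0.34 (adjusted p = 0.0346, limma). The call of AkhR was lost in 8 of 17 alternatives (limma adjusted p up to 0.165), which were subtracting array medians, the mean of all probe sets, the replicate block and the absence of HSD-ancestry replicate 1, 3 or 4 or CD-ancestry replicate 3 or 4. Each of those 5 absences left 0 of the list, and 3 passed without CD-ancestry replicate 1 or 2. Of 14 genes of fatty acid and triglyceride synthesis 0 passed by limma, with 3 at an unadjusted p under 0.05 and changes from -0.14 to 0.28, the highest being the acyl-CoA synthetase gene Acsl (limma adjusted p = 0.155).

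The largest rise was that of Acbp6, an acyl-CoA binding protein gene. It read 7.09, 7.50, 7.19 and 7.20 in CD ancestry and 8.37, 8.44, 7.89 and 8.25 in HSD ancestry, with no overlap. The rise was 0.99 ± 0.12, or 1.99-fold (adjusted p = 0.00454, limma). MtnB, a metallothionein gene that binds metal ions, read 9.143, 9.589, 9.086 and 9.139 against 10.005, 9.918, 9.803 and 10.155. CD-ancestry replicate 2 stood above its group, and the rise was 0.73 ± 0.11 (adjusted p = 0.00953, limma). MtnB was the 1 gene that passed of 17 in metal handling, beside 1.29% of all genes tested. On that list 1 gene also passed with any 1 array left out.

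Among 143 detoxification genes 2 rose and 2 fell, beside 0.499% of all genes tested that rose and 0.793% that fell. The number that passed was 8 without HSD-ancestry replicate 2 and 11 without CD-ancestry replicate 2. GstD8, a glutathione transferase gene, read 6.90, 6.74, 6.85 and 7.03 in CD ancestry and 7.33, 7.56, 7.42 and 7.39 in HSD ancestry and rose by 0.54. The cytochrome P450 gene Cyp309a1 rose by 0.37, and the P450 genes Cyp4d14 and Cyp4e3 fell by 0.57 and 0.39. The call of Cyp4e3 was lost in 5 of 17 alternatives (limma adjusted p up to 0.0891), among them the absence of HSD-ancestry replicate 1, 3 or 4. Of 17 genes of serine, methionine and folate metabolism, 2 rose. These were CG3999, a glycine decarboxylase of the glycine cleavage system, by 0.39, and pug (pugilist), a folate-cycle enzyme, by 0.31. The call of pug was lost in 6 of 17 alternatives (limma adjusted p up to 0.110), and 1 gene of the list passed without HSD-ancestry replicate 3 or 4 or CD-ancestry replicate 1, 3 or 4. Lsp2, a storage protein gene of the fat body, read 13.54, 13.32, 13.39 and 13.41 against 13.68, 13.71, 13.74 and 13.76 and rose by 0.31 (adjusted p = 0.0273, limma). The call of Lsp2 was lost with the replicate block and without HSD-ancestry replicate 1, 3 or 4 or CD-ancestry replicate 3 or 4 (limma adjusted p up to 0.110). In each of those 6 cases 0 of the fat body list passed, where 2 passed without HSD-ancestry replicate 2 and 3 without CD-ancestry replicate 2.

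Of 24 immune recognition and signalling genes 2 passed without CD-ancestry replicate 2. With all 8 arrays 1 of the 24 rose, beside 0.499% of all genes tested. That gene, pirk, which restrains the Imd immune pathway, read 7.87, 8.04, 8.02 and 8.07 in CD ancestry and 8.37, 8.46, 8.57 and 8.68 in HSD ancestry and rose by 0.52 ± 0.07 (adjusted p = 0.00734, limma). Listericin, an antibacterial peptide gene outside that list, read 9.616, 9.998, 9.795 and 9.781 against 10.349, 10.303, 10.491 and 10.670 and rose by 0.66. Of 16 antimicrobial and Bomanin peptide genes 0 passed by limma, with 5 at an unadjusted p under 0.05. All 16 changes were above 0, from 0.05 to 0.82, with a median of 0.22. Over all 10212 genes tested 2221 were at that unadjusted p and 3719 were above 0, with a median of -0.04.

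Of the 41 lists examined, 28 had 0 members past the threshold. Single members passed in 3 more, of 14 clock, 38 odorant-binding protein and 16 photoreceptor genes tested, beside 1.29% of all genes tested. Pdp1, a clock transcription factor, rose by 0.36. Obp19c, an odorant-binding protein gene, fell by 0.87, and rdgC, a phosphatase of photoreceptors, fell by 0.37. For rdgC the other probe set, which was dimmer, changed by 0.05 the other way. These calls were lost in 7, 6 and 7 of 17 alternatives (limma adjusted p up to 0.134, 0.109 and 0.142), in each without replicate 3 or 4 of HSD ancestry or replicate 3 of CD ancestry. With 1 array left out each of the 3 lists had 0 to 2 members that passed, 2 of them in each without CD-ancestry replicate 2. Of the remaining large rises, the non-coding RNA lncRNA:CR32368 rose by 0.80, and CG14499, CG13482, CG31468, CG12780, CG13946, CG34040, CG15870 and CG6283 rose by 0.78, 0.73, 0.73, 0.72, 0.62, 0.61, 0.60 and 0.58. Of these, the calls of lncRNA:CR32368, CG31468, CG12780, CG13946 and CG6283 were lost in 4, 7, 2, 4 and 5 alternatives, with limma adjusted p up to 0.0950, 0.136, 0.0711, 0.0757 and 0.119, and the absence of CD-ancestry replicate 3 was among them in each.

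The same ancestry contrast exists in F2 females on HSD, in F1 females on CD and in F2 males on CD, with 4 against 4 arrays of each and no array shared with the comparison above. In these sets 84 (0.811%), 271 (2.65%) and 327 (2.99%) genes passed. In F2 females on HSD 41 of the 84 were lower and the others higher. In F1 females on CD only 16 of the 271 were lower, so most calls there were upward. The eggshell list had 2 of 21 lower and 0 higher in F2 females on HSD, with a median of -0.27, and 3 of 21 higher and 0 lower in F1 females on CD, with a median of 0.25. Each set was taken as normalized on its own, so the ancestry comparisons between sets used changes and not levels. The main comparison carried batch label 8. F2 females on HSD carried label 9, F1 females on CD label 4 and F2 males on CD label 6. In a difference between sets, diet, generation or sex therefore cannot be told apart from batch.

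The difference between the ancestry change in F2 CD-fed females and that in F2 HSD-fed females passed for 18 of 10653 genes (0.169%), 7 above 0 and 11 below. On the eggshell list 1 of 21 passed, dec, which changed by -1.13 on CD and by -0.26 on HSD. The other 20 did not pass, so a difference between these sets was not shown for them. Try29F changed by 0.59 on CD and -0.18 on HSD, and fw by -1.07 and 0.39. AkhR changed by -0.34 on CD and 0.29 on HSD. This count fell to 0 without HSD-ancestry replicate 3 and to 0 without HSD-ancestry replicate 4, was 11 without CD-ancestry replicate 3 and 11 without CD-ancestry replicate 4, and rose to 28 without HSD-ancestry replicate 2, to 50 without CD-ancestry replicate 1 and to 46 without CD-ancestry replicate 2.

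The difference from F1 CD-fed females passed for 301 of 10436 genes (2.88%), 45 above 0 and 256 below. It included 5 of 21 eggshell genes and 9 of 29 midgut proteases and lysozymes, all below 0. The gene psd changed by -0.74 in F2 and 0.82 in F1, and dec by -1.13 and 0.53. In F1 females 11 of those 29 rose with HSD ancestry and 0 fell, with a median of 0.34. Over all genes tested in that set 2.65% passed, with a median change of 0.02. Of the 271 that passed there 16 fell and the others rose, so the calls on this list had the direction of most calls in that set. CG12057 changed by -0.77 in F2 and 1.03 in F1, and Mal-B1 by 0.62 and -0.18. The count was 180, 191 and 170 without HSD-ancestry replicates 1, 3 and 4, and 480, 173 and 188 without CD-ancestry replicates 1, 3 and 4.

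The difference from F2 CD-fed males passed for 962 of 11346 genes (8.48%), 237 above 0 and 725 below, with 17 of 21 eggshell genes below 0. Males make no eggshell. There 15 of the 21 reached the dim filter, with a median change of -0.00079, so for this list the difference mostly restates the change in females. Of the 81 genes that fell in females 10 were dim in these males (12.3%), beside 4.52% of all genes tested. Acbp6 changed by 0.99 in females and -0.37 in males. Jon25Biii fell in both, by 0.54 in females and 0.38 in males, and its difference of -0.16 ± 0.12 (SE) did not pass (limma adjusted p = 0.405). The count was 339 and 389 without HSD-ancestry replicates 1 and 4, and 1522, 383 and 333 without CD-ancestry replicates 2, 3 and 4.

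**Figure D3:**
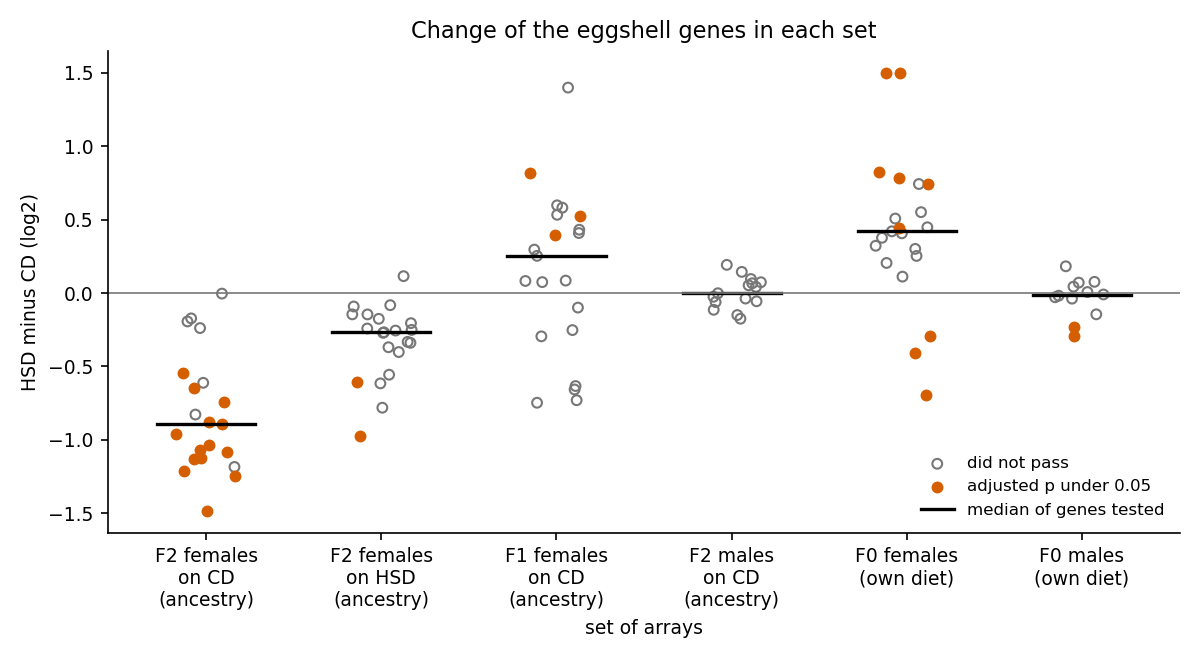
Log2 change (HSD minus CD) of the eggshell genes tested in each of 6 sets of arrays, where each point is 1 gene, filled points passed and bars are medians. The median is -0.89 in F2 females on CD, -0.27 in F2 females on HSD and 0.25 in F1 females on CD.

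The genes that changed with ancestry were also set beside the direct effect of the diet in the F0 generation, where 4239 genes passed in females (41.4%) and 3357 in males (30.7%). No array is shared, and F0 females are not ancestors that define the groups. Of the 131 genes tested in both, 99 had the opposite sign in F0 females (75.6%), beside 55.8% of all genes tested in both. Of the 131, 77 passed there with the opposite sign against 16 with the same, beside 2512 against 1701 over all genes. In F0 males 98 of 120 had the opposite sign (81.7%), beside 54.5% of all genes. There 68 passed with the opposite sign against 12 with the same, beside 1630 against 1151 over all genes. In F2 females on HSD 108 of 131 had the same sign, beside 6529 of 9911 genes. There 18 passed with the same sign against 0 with the opposite, beside 68 against 14 over all genes. In F1 females on CD 60 of 132 had the same sign, beside 5380 of 10000. Of these 132, 11 passed there with the same sign and 11 with the opposite, beside 145 and 126 over all genes. In F2 males on CD 71 of 122 had the same sign, beside 3787 of 9802. There 13 passed with the same sign against 2 with the opposite, beside 121 against 180 over all genes. These shares describe genes within the sets, which are not independent of each other, and carry no test.

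The opposite sign was seen on both sides. CG34040 rose by 0.61 with HSD ancestry and changed by -6.29 with HSD in F0 females and -1.71 in F0 males. MtnB changed by 0.73 with ancestry and by -3.30 and -2.37 with diet, and GstD8 by 0.54, -2.19 and -1.81. Mal-B1 changed by 0.62, -1.02 and -1.14.

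Several genes that fell with ancestry rose with diet. The gene mag changed by -0.51 with ancestry and by 1.44 and 1.24 with diet in F0 females and males, and AkhR by -0.34, 2.07 and 1.06. Jon25Biii changed by -0.54, 1.57 and 0.96, Jon65Aii by -0.75, 2.44 and 0.85, and zetaTry by -0.40, 1.66 and 0.46. On the eggshell list the F0 diet gave 6 higher and 3 lower of 21 in females, with a median of 0.42. Over all genes tested in F0 females it gave 2369 higher and 1870 lower of 10250 (41.4% passed), with a median of 0.02. An exception to the opposite sign was lncRNA:CR32368, which was higher with HSD ancestry and higher with HSD in F0 females (0.83) and F0 males (0.46).

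**Figure D4:**
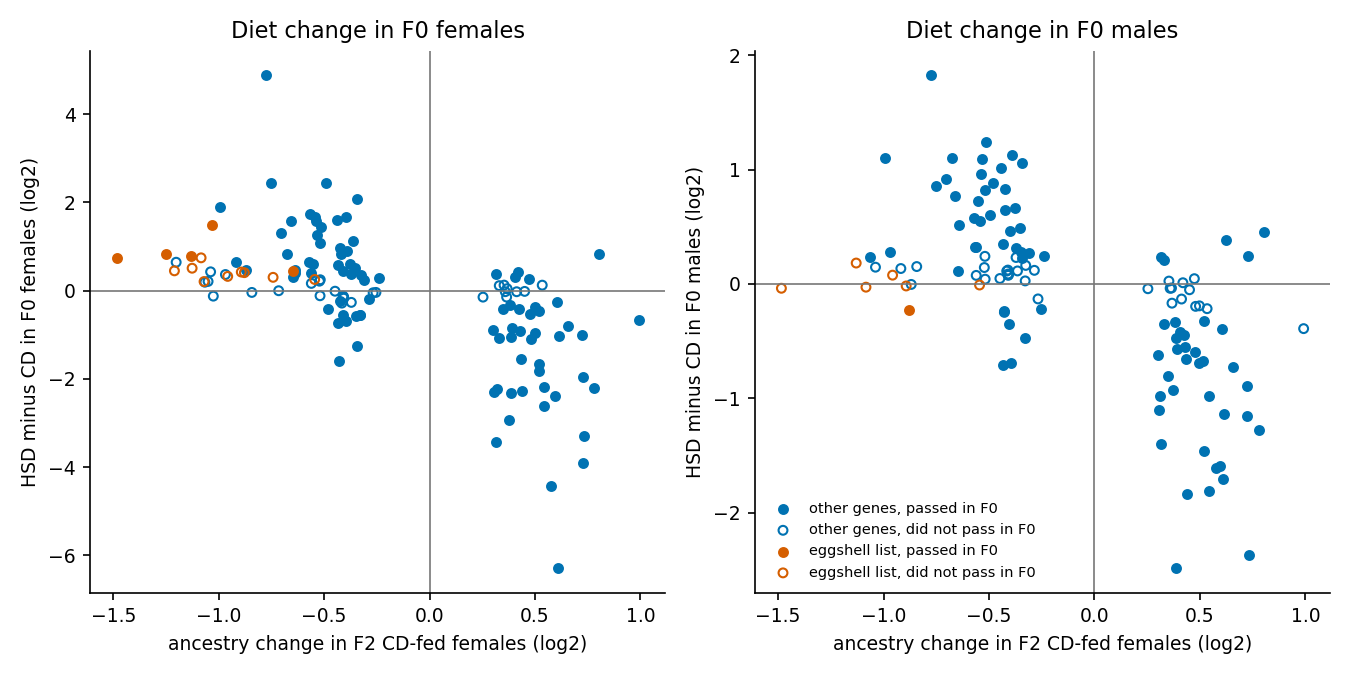
Change with ancestry in F2 CD-fed females (x axis, log2) against the change with diet in F0 females (left) and F0 males (right, y axis, log2) for genes that passed in F2 CD-fed females. Most points lie in the upper left and lower right, where the signs are opposite: 99 of 131 genes in F0 females and 98 of 120 in F0 males.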

How the data were processed

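The authors deposited log2 signals per probe set, made with RMA per the submitters' processing notes, which also name limma and give no versions. Sorted values within a set of 8 arrays differed by a median of 0.04 to 0.11, so each set was taken as normalized on its own. The table holds 18952 probe sets. Left out were 183 controls, 402 with several symbols and 4720 with none. The other 13647 had 1 symbol, and 13544 of them matched the annotation by Entrez ID. After 1 more was left out, whose symbol belongs to another gene, they named 11982 genes. For 1094 genes with several probe sets the one with the highest mean over all 80 arrays was used. Among the called genes 15 have 23 other probe sets, 12 of opposite sign, 9 of them above the dim filter, and 9 called genes rest on probe sets with possible matches to more than 1 transcript.

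A gene was tested if its mean reached the 25th percentile of probe sets in at least 1 group of the fit. Each comparison was fitted with limma 3.58.1 (R 4.3.3; two-sided, default eBayes) on its 8 arrays, and each difference on 16, with Benjamini-Hochberg adjustment over all genes tested. The scripts were tested on simulated data. Tables used version 1.17.8 of data.table, Python 3.11.15, pandas 2.3.3 and numpy 2.4.6, and figures matplotlib 3.10.9. Arrays have no counts, and their number limits the precision.

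The text names some genes of a rule: the 15 largest rises and falls among called genes, up to 4 called members of each list, chosen lists of metabolism, yolk, small RNA and chromatin, and the 6 largest differences on each side. From those chosen lists the member with the smallest p and Yp1 to Yp3 are named, and the whole eggshell list, a selection made after values were seen. The members and lists were chosen with earlier results of these data known. A few names that matched wrong genes were removed from the lists after values were seen.

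Alternatives were no dim filter, a 50th percentile filter, quantile normalization, subtracting array medians, the mean of all probe sets, array weights, a trended robust prior, 1 model for all 80 arrays, a replicate block and each array left out. Same-numbered arrays did not deviate together (correlations of -0.04, -0.10, 0.04 and -0.19), so the numbers were not taken to pair samples.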

Additional observations from a re-analysis of the deposited data

Results flagged for a closer look

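In 4 of 132 groups of 4 arrays examined for the named genes, 1 array stood apart from the rest of its group, where chance alone flags about 1 in 20. The gap to the nearest array, as a share of the group's range, was 0.866 for Cyp309a1 in CD-ancestry replicate 3, 0.888 for MtnB in CD-ancestry replicate 2, 0.843 for psd in CD-ancestry replicate 4 and 0.849 for Yp2 in CD-ancestry replicate 2.

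The ancestry change differed from that in F2 HSD-fed females in 18 genes by limma on 16 arrays. The largest differences above 0 were Jon99Ci (0.80), Try29F (0.77), CG15870 (0.64), CG7025 (0.59), CG14567 (0.54) and CG7296 (0.45). Those below 0 were fw (-1.45), dec (-0.87), CG10182 (-0.68), Cyp4p1 (-0.67), AkhR (-0.63) and CG17752 (-0.60).

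It differed from that in F1 CD-fed females in 301 genes. Above 0 the largest were lncRNA:CR32368 (0.87), CG13946 (0.83), lncRNA:CR43882 (0.81), Mal-B1 (0.80), vvl (0.68) and Prps (0.65). Below 0 they were TotC (-2.32), CG12057 (-1.80), PICK1 (-1.69), dec (-1.66), psd (-1.56) and Obp19a (-1.49). The RNA lncRNA:CR43882 was dim, with a mean of 4.09 over the 8 arrays of F2 CD-fed females, where the 25th percentile was 4.25. There its probe set in use changed by 0.47 and its other probe set by 0.20. For vvl these changes were 0.47 and -0.14.

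It differed from that in F2 CD-fed males in 962 genes. Above 0 the largest were Acbp6 (1.36), lncRNA:CR32368 (1.23), CG3638 (1.07), escl (1.00), vvl (0.95) and CCHa2 (0.95). Below 0 they were Fcp3C (-1.45), CG14187 (-1.31), Cp7Fc (-1.27), jeb (-1.23), toy (-1.23) and Cp19 (-1.22). Fcp3C, Cp7Fc and Cp19 are eggshell genes, which lay between 4.03 (Cp7Fc) and 5.65 (Fcp3C) in the 8 male arrays, so these 3 differences mostly restate the change in females. Cp7Fc was under the dim filter in both groups of males. The gene vvl has another probe set of the opposite sign.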

How the results depend on the processing

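The change of 51 called genes that the text names was recomputed under up to 17 alternatives. All 51 kept their sign wherever they were tested, and 26 of them passed each time. The kept sign is little support, because the groups of called genes do not overlap and leaving out 1 array could not reverse it. The filters, the trended robust prior, the replicate block and the fit of all 80 arrays also leave the difference of group means unchanged. The count of called genes, 132 as reported, was 226 with a 50th percentile filter, 307 with a trended robust prior, 1059 with array weights and 1333 when all 80 arrays shared 1 fit, and 53 to 464 with 1 array left out. The 14 eggshell genes that fell became 8 with the trended robust prior and 9 to 15 with 1 array left out. The difference from F2 HSD-fed females, 18 genes, was 36 after quantile normalization, 92 with array weights, 141 in the fit of all 80 arrays, 61 with the trended robust prior and 0 to 50 with 1 array left out. That from F1 CD-fed females, 301, was 974 with array weights, 708 in the fit of all 80 arrays and 170 to 480 with 1 array left out. That from F2 CD-fed males, 962, was 1820, 2574 and 333 to 1522 in the same order. With the replicate block these 3 counts were 0, 186 and 529, the main count was 126, of which 99 were among the 132, and 15 eggshell genes fell. Of uncalled genes, tsl changed sign after quantile normalization (0.061) and median subtraction (0.074) and ranged from -0.041 to 0.027 with 1 array left out, Yp1 was -0.018 after quantile normalization and Yp2 0.019 after median subtraction. The cause of these shifts was not tested. With 4 arrays a group, small changes can be missed.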
